A study of Mus musculus with 87 samples.

Results

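The Kcnq1 domain is a cluster of imprinted genes at the distal end of mouse chromosome 7. It was followed here through 8 of the 25277 genes in the deposited count tables: Cdkn1c, Phlda2, Slc22a18, Kcnq1, Kcnq1ot1, Ascl2, Cd81 and Tssc4. The genes were chosen by name, with no threshold on a measured value, and all 8 have a row in each of the 10 tables. The tables hold 87 RNA-seq libraries in 31 groups, from androgenetic haploid embryonic stem cells, from embryos and from fetal and newborn organs of a study of semi-cloned mice, which are made by giving an oocyte a haploid stem cell in place of a sperm. Haploid cells (AG-haESC) were labelled Dnmt WT (3 libraries), Dnmt TKO (3) or Dnmt STOP (2). Embryos and organs were labelled pWT, pTKO or pIR: 2C embryos (4 pWT and 4 pIR), morulae (3 and 4), blastocysts (4 and 4), E18.5 organs of a first batch (brain, heart, kidney, liver and lung, 2 pWT and 2 pTKO each), E18.5 organs of a second batch (heart and liver, 4 pWT and 4 pIR each), and P1 organs (heart, kidney, liver and lung, 3 pWT and 2 pIR each). What pIR, STOP and the prefix p stand for, the strain, the sex and the number of animals or clones behind each group are not given in the sources used here. Nothing states that libraries of a group came from separate animals or cultures, so every p-value measures the spread between these libraries only.

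In an imprinted domain the maternal and the paternal copy of a gene are used unequally. In the Kcnq1 domain the start of the long noncoding RNA Kcnq1ot1 lies in a control region inside Kcnq1. That region is methylated on the maternal chromosome, where Kcnq1ot1 is silent, and unmethylated on the paternal chromosome, where Kcnq1ot1 is transcribed and the neighbouring protein-coding genes are repressed in cis, some in many tissues and others mainly in the placenta. Cdkn1c (p57Kip2) is an inhibitor of cyclin-dependent kinases, Phlda2 restrains placental growth, Slc22a18 is a membrane transporter, Kcnq1 is the pore subunit of a voltage-gated potassium channel, Ascl2 is a transcription factor of the trophoblast lineage, Cd81 is a tetraspanin of the cell surface, and Tssc4 takes part in assembly of the U5 snRNP of the spliceosome. Androgenetic cells hold chromosomes of paternal origin only. The Dnmt enzymes place methyl groups on the cytosine of CpG dinucleotides. Count tables do not separate the parental alleles, so each value below is the sum of both.

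In the mouse genome build mm10 the 8 genes run along chromosome 7 in the order Ascl2 (142966829 to 142969264, minus strand), Cd81 (143052739 to 143067934, plus), Tssc4 (143069249 to 143071093, plus), Kcnq1 (143106362 to 143427042, plus), Kcnq1ot1 (143203458 to 143296549, minus, inside Kcnq1), Cdkn1c (143458339 to 143461050, minus), Slc22a18 (143473736 to 143499334, plus) and Phlda2 (143501545 to 143503150, minus). Some of these genes overlap others, and no strand setting of the counting is given, so their reads cannot be told apart by strand: Kcnq1 shares 121 exon bases (2.96%) with Kcnq1ot1, Cd81 shares 104 (3.61%) with R74862, Tssc4 shares 220 (11.9%) with Trpm5, and Cdkn1c shares 625 (30.7%) with the antisense gene Gm44732, which has no row in the tables. RefSeq promoter windows of 300 bases (250 before and 50 after the start, build GRCm38.p6) were at hand for 6 of the 8 genes. Capitals mark CpG dinucleotides, the sites that the Dnmt enzymes methylate. The start of Kcnq1ot1 is shown because it is the RNA of the control region, and those of Ascl2, Phlda2 and Slc22a18 because these genes carry called differences described below. They lie at chr7:143296498-143296797 (Kcnq1ot1, minus strand), chr7:142969215-142969514 (Ascl2, minus), chr7:143502475-143502774 (Phlda2, minus) and chr7:143473539-143473838 (Slc22a18, plus).
Kcnq1ot1: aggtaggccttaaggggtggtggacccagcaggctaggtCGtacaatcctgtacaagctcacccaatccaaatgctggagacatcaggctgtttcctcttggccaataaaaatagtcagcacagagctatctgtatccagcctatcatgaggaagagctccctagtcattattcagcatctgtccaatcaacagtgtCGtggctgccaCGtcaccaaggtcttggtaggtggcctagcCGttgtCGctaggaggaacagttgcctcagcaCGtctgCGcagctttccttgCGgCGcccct
Ascl2: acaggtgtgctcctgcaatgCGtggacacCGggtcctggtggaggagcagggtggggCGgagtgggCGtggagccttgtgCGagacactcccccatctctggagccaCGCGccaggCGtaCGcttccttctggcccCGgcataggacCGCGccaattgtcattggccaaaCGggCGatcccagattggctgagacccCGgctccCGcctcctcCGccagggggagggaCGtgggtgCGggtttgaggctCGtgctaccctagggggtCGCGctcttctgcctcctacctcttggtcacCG
Phlda2: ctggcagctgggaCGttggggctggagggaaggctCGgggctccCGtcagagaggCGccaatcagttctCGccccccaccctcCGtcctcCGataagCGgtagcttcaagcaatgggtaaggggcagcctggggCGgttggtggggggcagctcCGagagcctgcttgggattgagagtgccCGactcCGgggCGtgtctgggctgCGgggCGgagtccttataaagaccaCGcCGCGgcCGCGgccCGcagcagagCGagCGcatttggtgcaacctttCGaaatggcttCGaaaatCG
Slc22a18: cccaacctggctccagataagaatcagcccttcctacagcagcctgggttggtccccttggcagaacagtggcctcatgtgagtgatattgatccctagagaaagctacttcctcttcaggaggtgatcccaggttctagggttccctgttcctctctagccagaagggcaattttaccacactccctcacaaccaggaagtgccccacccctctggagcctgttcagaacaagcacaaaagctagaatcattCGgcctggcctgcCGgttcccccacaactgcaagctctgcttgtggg

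The windows differ in CpG content. Phlda2 holds 26 CpG, Ascl2, Cd81 and Tssc4 hold 23 each, Kcnq1ot1 holds 9 and Slc22a18 holds 2, where the median of 32851 mouse promoter windows is 7. The Slc22a18 window has more CpG than 14.1% of all windows and the Phlda2 window more than 83.1%. The letters CCAAT, searched on both strands and present in 37.4% of windows, occur 3 times in the Kcnq1ot1 window and 3 times in the Ascl2 window, and 1 time each in those of Phlda2 and Tssc4. The letters TATAAA (13.6% of windows) occur 1 time in Phlda2 and 1 time in Cd81. These matches describe the letters only.

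Library totals ranged from 6.1 to 37.4 M counts (M, as in CPM): 16.8 to 24.5 in haploid cells, 6.1 to 24.0 in 2C embryos, 7.7 to 17 in morulae, 9.7 to 14.9 in blastocysts, 10.7 to 37.4 and 16.3 to 23.8 in the 2 E18.5 batches, and 13.9 to 21.0 at P1. The markers of each labelled organ summed highest in libraries of that organ, for example 61900 to 68600 counts per M counts of the library (CPM) for 7 heart genes in pWT heart of the first E18.5 batch against 1.11 to 278 in the other pWT organs of that batch. In haploid cells Dnmt1 was at 418 to 425 CPM in WT, 68.8 to 74 in TKO and 572 to 601 in STOP, so RNA checks the TKO label and does not check the STOP label. In 11 embryo columns the group pWT was assigned by elimination, since their names carry a code that the labels do not explain, and the embryo results rest on that. These are bulk libraries, in which fewer cells of a type and less RNA per cell cannot be told apart.

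**Figure D1:**
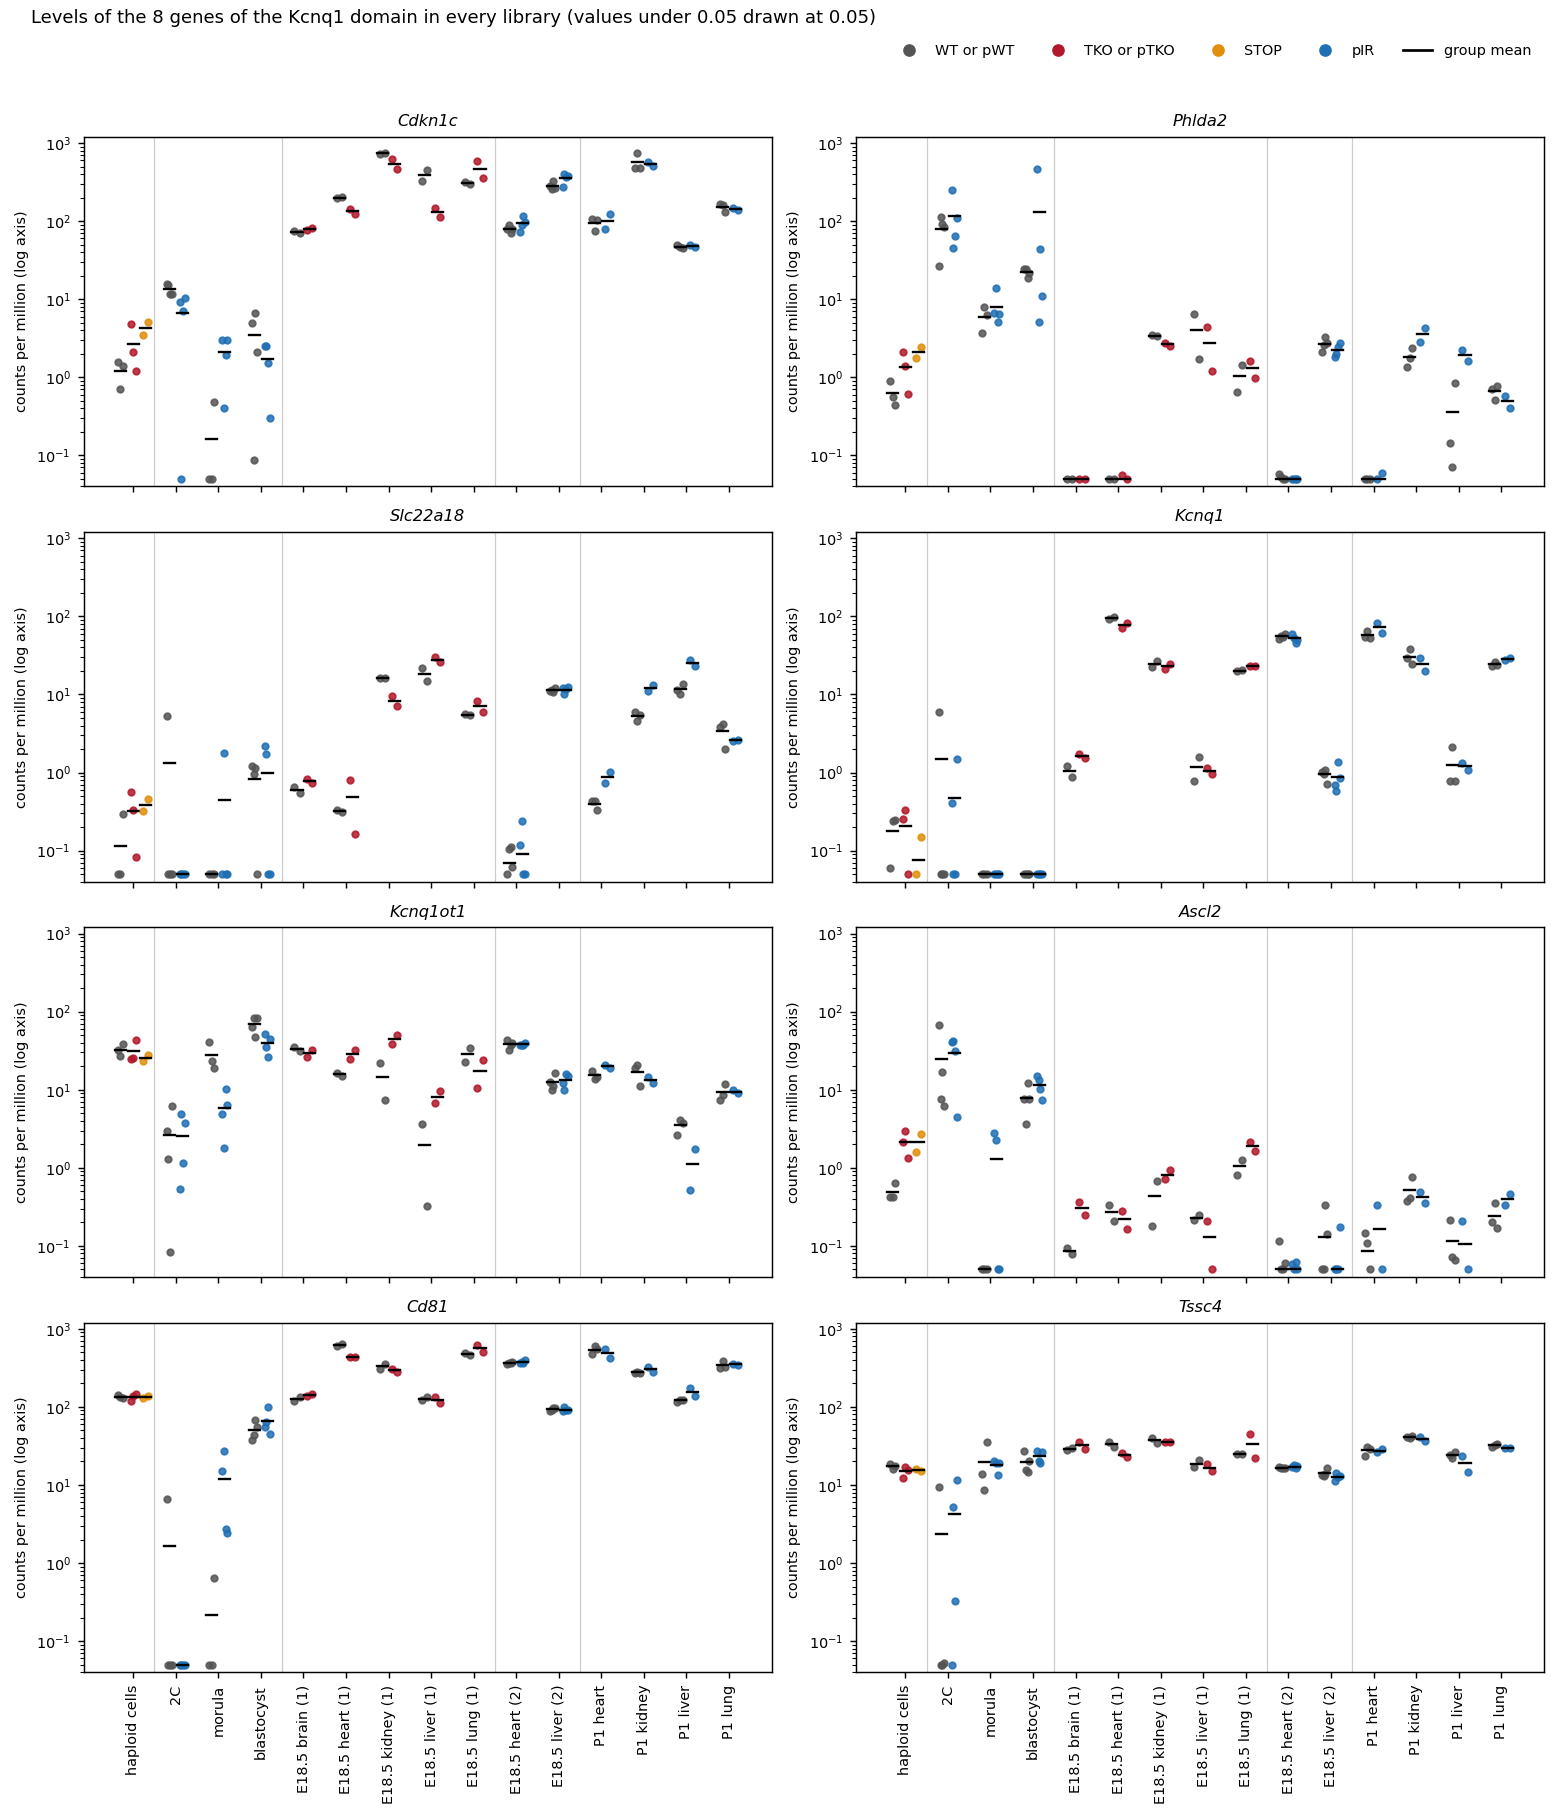
Level of each of the 8 genes in all 87 libraries, in CPM on a log axis; each point is 1 library, bars are group means, and (1) and (2) are the E18.5 batches. Cdkn1c sits between 45.6 and 755 CPM in all organs and under 16 in haploid cells and embryos, and the highest values of Ascl2 (67.4) and Phlda2 (460) are in a 2C embryo and a blastocyst library.

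In androgenetic haploid cells labelled Dnmt TKO or Dnmt STOP, Ascl2 rose, and Kcnq1ot1 was not called in the fit of all 3 genotypes. Levels of Cdkn1c, Phlda2 and Ascl2 were low in WT cells and had higher means in both TKO and STOP cells. Ascl2 was at 0.417, 0.424 and 0.639 CPM in the 3 WT libraries, at 2.17, 2.99 and 1.35 in TKO and at 1.59 and 2.68 in STOP. Every TKO and STOP library was above every WT library. Ascl2 rose by a log2 fold change of 2.06 ± 0.41 (SE) in TKO (edgeR quasi-likelihood F test, adjusted p = 0.0145) and by 1.99 ± 0.44 in STOP (edgeR adjusted p = 0.0183). Both comparisons use the same 3 WT libraries. The TKO call was lost without WT library 1 (edgeR adjusted p = 0.0729), WT library 2 (0.0669) or TKO library 2 (0.0556), and the STOP call was lost without any 1 of its 5 libraries (0.0564 to 0.172).

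Cdkn1c, the kinase inhibitor, was at 1.55, 0.707 and 1.38 CPM in WT, at 4.85, 2.09 and 1.19 in TKO and at 3.5 and 5.15 in STOP. The STOP libraries lay above all WT libraries, while TKO library 3 lay inside the WT range. Cdkn1c rose in STOP by 1.74 ± 0.55 (edgeR adjusted p = 0.0497), a call lost when any 1 of the 5 libraries compared was left out (0.0995 to 0.271), and differed by 1.08 ± 0.51 in TKO (edgeR adjusted p = 0.175). Phlda2, the placental growth regulator, was at 0.894, 0.566 and 0.443 CPM in WT, 2.12, 1.38 and 0.613 in TKO and 1.75 and 2.42 in STOP. The STOP libraries did not overlap WT and the TKO libraries did. The fitted differences of Phlda2 were 1.04 ± 0.48 in TKO (edgeR adjusted p = 0.167) and 1.63 ± 0.52 in STOP (edgeR adjusted p = 0.0503). The STOP difference was called by DESeq2 (adjusted p = 0.0343). By edgeR it was called with no filter on low counts (0.0473) and with WT and STOP alone in the fit (0.00176). That last fit also called far more of all genes. TKO library 3 was the lowest of its group for Ascl2, Cdkn1c and Phlda2. Without it the log2 fold changes were 1.43 for Cdkn1c (edgeR adjusted p = 0.0129), 1.38 for Phlda2 (0.0138) and -0.46 for Kcnq1ot1 (0.0257). The number of genes of the domain called in TKO then went from 1 to 4. The count over all genes also moved widely when 1 library was left out, so this rise is not a result about the domain.

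Kcnq1ot1 was at 32.1, 26.7 and 38.4 CPM in WT, 25.0, 25.4 and 43.5 in TKO and 23.2 and 27.6 in STOP, with overlap between all 3 genotypes. Its fitted differences were -0.08 ± 0.26 in TKO (edgeR adjusted p = 0.855; 95% interval -0.58 to 0.42) and -0.45 ± 0.29 in STOP (edgeR adjusted p = 0.264). With the WT and STOP libraries alone in the fit the STOP difference was called (0.0112), in a fit that also called far more of all genes. Cd81 stayed between 119 and 145 CPM and Tssc4 between 12.2 and 18.7 CPM in all 8 haploid libraries, with no call. Slc22a18 and Kcnq1 were under 0.6 CPM in every haploid library and did not pass the filter on low counts. In all, 1 of 6 tested genes of the domain was called in TKO, where 14.6% of all genes were called (9.83% higher and 4.72% lower), and 2 of 6 in STOP, where 23.1% were (13.8% higher and 9.37% lower). Between STOP and TKO, where 0.0401% of all genes were called, edgeR called 0 of 6 genes, 0 had an unadjusted p under 0.05, and DESeq2 called 0. The STOP minus TKO difference was -0.07 for Ascl2 (95% interval -0.87 to 0.74) and 0.65 for Cdkn1c (-0.38 to 1.69), intervals that allow sizeable differences in either direction.

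Some other inhibitors of cyclin-dependent kinases were called in the same haploid comparisons. Of all genes 14.6% were called in TKO (9.83% higher, 4.72% lower) and 23.1% in STOP (13.8% higher, 9.37% lower). Of 6 tested genes of the Cip/Kip and Ink4 families 3 rose and 0 fell in TKO, with a median log2 fold change of 0.89 beside 0.01 over all genes: Cdkn1a 0.84, Cdkn2a 0.95 and Cdkn2c 1.29. The same 3 rose in STOP, where Cdkn2c reached 1.70. Among 14 chromatin proteins known to act with Kcnq1ot1 (the Polycomb complexes and H3K9 methyltransferases), 2 rose in TKO, Ezh2 by 0.42 and Pcgf5 by 0.85, and in STOP 3 rose and 3 fell. Of 8 tested genes that flank the domain, Dhcr7, an enzyme of cholesterol synthesis, rose by 1.00 in TKO and 0.99 in STOP, Tnfrsf22 fell by 0.54 in TKO, and Osbpl5 rose by 2.27 and Tspan32 fell by 1.13 in STOP. Of 9 cyclins and kinases bound by Cdkn1c 1 fell in TKO and 3 fell in STOP, with Ccnd1 at -1.06. Of 9 tested tetraspanins and partners of Cd81 1 rose in TKO, Tspan4 by 1.02, and 3 rose in STOP. Of 14 U5 snRNP genes 1 fell in TKO and 5 fell in STOP. In TKO the counts of chromatin, cyclin and kinase, tetraspanin and U5 snRNP genes are near or under the 14.6% of all genes.

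**Figure D2:**
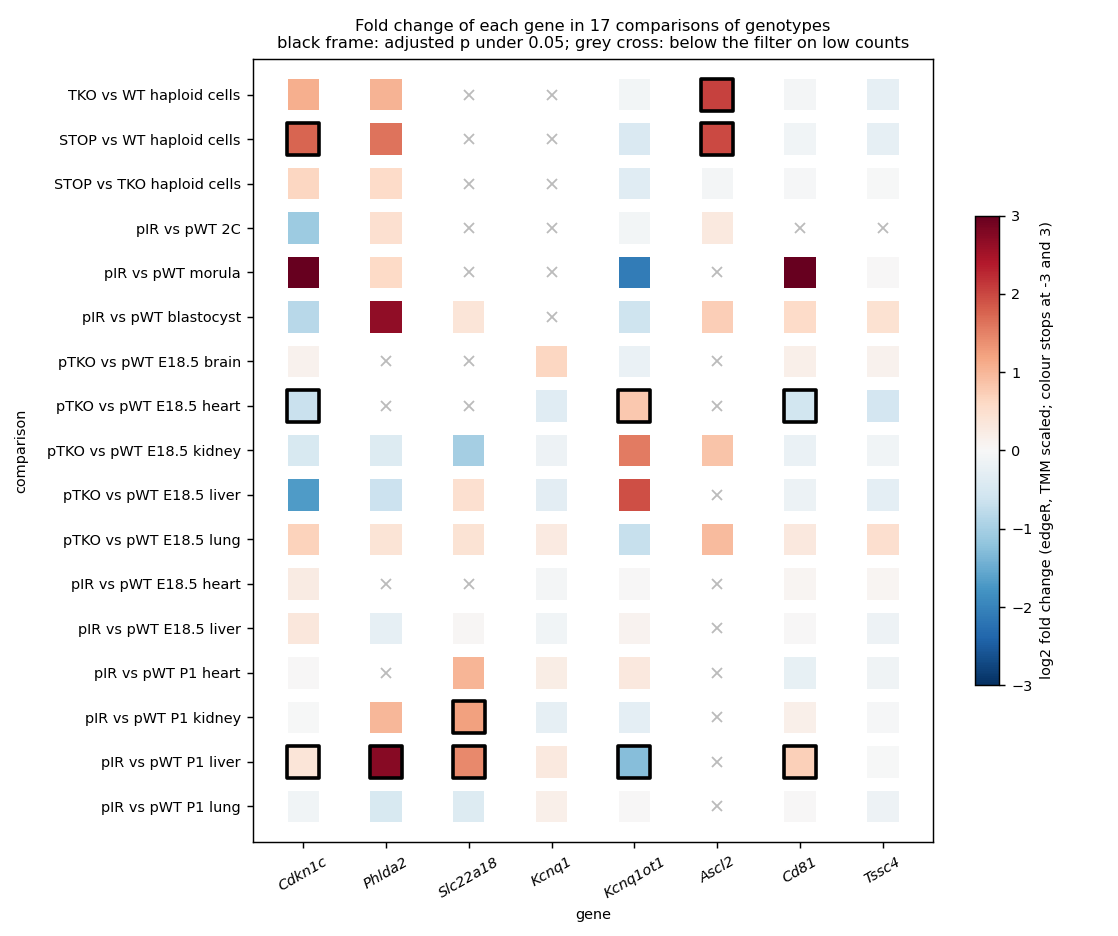
Log2 fold change of the 8 genes in 17 comparisons of genotypes, from red (higher in the first-named genotype) to blue (lower), with a black frame at adjusted p under 0.05. Framed squares stand in TKO and STOP against WT haploid cells, E18.5 pTKO heart, P1 pIR liver and P1 pIR kidney. The shares of all genes called there were 14.6%, 23.1%, 26.8%, 39.2% and 10.6% in that order. Kcnq1 (11 comparisons tested) and Tssc4 (16 tested) have no frame.

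Between stages of pWT embryos the genes of the domain differed in opposite directions. From 2C embryos to morulae Kcnq1ot1 was higher while Cdkn1c, Phlda2 and Ascl2 were lower. The 2C libraries were deposited apart from the morulae and blastocysts, which share a deposited set. Stage and set therefore cannot be told apart in the step from 2C to morula. Kcnq1ot1 was at 2.94, 1.28, 0.0833 and 6.15 CPM in the 4 pWT 2C libraries, at 40.8, 23.2 and 19.1 in pWT morulae and at 63.9, 83.5, 47.3 and 81.8 in pWT blastocysts. The 3 stages did not overlap. Kcnq1ot1 rose from 2C to morula by 2.86 ± 0.94 (edgeR adjusted p = 0.0294), and from morula to blastocyst the difference was 0.99 ± 0.93 (edgeR adjusted p = 0.723). The first call was lost without 2C library 1 (0.0622), 2C library 2 (0.0674) or any 1 of the 3 morula libraries (0.053 to 0.0921). The nuclear-retained RNAs Malat1, Neat1, Airn and Xist, a list chosen after its values were seen, summed to 395 to 1180 CPM in pWT 2C embryos and 6530 to 12300 in pWT morulae. Of the 4 genes 3 were called higher and 1 lower. Their part in the result was not tested.

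Phlda2 was at 27.0, 114, 92.6 and 83.0 CPM in pWT 2C embryos, 3.68, 7.9 and 6.26 in morulae, and 24.2, 24.5, 18.7 and 21.9 in blastocysts. Morulae held the lowest values with no overlap on either side. It fell by 4.27 from 2C to morula (SE 0.62, edgeR adjusted p = 0.000291), and the later difference of 1.58 ± 0.54 was not called (edgeR adjusted p = 0.158). Cdkn1c was between 11.6 and 15.5 CPM in pWT 2C embryos and at 0, 0 and 0.481 in morulae, and fell by 6.77 (SE 1.83, edgeR adjusted p = 0.0117). In pWT blastocysts Cdkn1c was spread from 0.0866 to 6.63 CPM.

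Ascl2, required in the trophoblast lineage, was at 67.4, 7.71, 16.7 and 6.2 CPM in pWT 2C embryos, had 0 counts in all 3 pWT morulae, and was at 7.59, 3.64, 12.3 and 7.53 in pWT blastocysts. Against a floor of 3 counts over the morula group (0.0828 CPM), it was at least 296-fold higher in 2C embryos (edgeR adjusted p = 0.000566; at least 123-fold without 2C library 1) and at least 93.8-fold higher in blastocysts (edgeR adjusted p = 0.0215). The second call was lost without any 1 of the 3 morula libraries (0.062 to 0.0704) or without blastocyst library 1, 3 or 4 (0.0503 to 0.0591). Of 7 tested genes of the domain, 4 were called from 2C to morula (42.5% of all genes) and 1 from morula to blastocyst (2.58% of all genes). DESeq2 called 4 genes of the domain in the second step. Scaling by the trimmed mean of M-values (TMM) lowered fitted differences by 0.51 and 0.33 in these 2 steps relative to scaling by library totals.

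In pIR embryos no gene of the domain was called by edgeR at any stage. At the 2C stage, where 0% of genes were called (0 of 11076; 8 by DESeq2; 235 with an unadjusted p below 0.05), 0 of 4 tested genes of the domain were called, 0 had an unadjusted p under 0.05 and DESeq2 called 0. Cdkn1c was at 9.32, 0, 7.01 and 10.4 CPM in pIR 2C embryos against 11.6 to 15.5 in pWT. The groups did not overlap, and the difference of -1.09 ± 1.22 was not called by edgeR. The share of all genes without overlap was not computed.

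In morulae Kcnq1ot1 and Cd81 did not overlap between pWT and pIR libraries, and neither was called by edgeR in the fit of morulae alone. The share of all genes without overlap was not computed. Kcnq1ot1 was at 40.8, 23.2 and 19.1 CPM in pWT and at 4.83, 1.79, 10.3 and 6.39 in pIR, and every pIR library was below every pWT library. The difference was -2.09 ± 0.57 (edgeR unadjusted p = 0.00317, adjusted p = 0.19). DESeq2 called it (adjusted p = 0.0277), as did edgeR with morulae and blastocysts in one fit (0.0178). Cd81 was at 0, 0 and 0.642 CPM in pWT morulae and at 15.2, 27.0, 2.76 and 2.45 in pIR morulae, again with no overlap. Its difference was 5.81 ± 1.48 (edgeR adjusted p = 0.183, DESeq2 adjusted p = 0.000355, edgeR with blastocysts in the fit 0.00809). Cdkn1c was at 0, 0 and 0.481 CPM in pWT morulae and at 3.0, 0.407, 1.95 and 2.97 in pIR morulae, which overlap (3.71 ± 1.80, edgeR adjusted p = 0.426). Of 5 tested genes edgeR called 0, where it called 0.136% of all genes, 2 had an unadjusted p under 0.05 and DESeq2 called 2. The sum of the nuclear-retained RNAs was also lower, at 6530 to 12300 CPM in pWT morulae and 2080 to 4480 in pIR morulae. Of 3 tested genes of that list, chosen after its values were seen, 0 were called, with a median log2 fold change of -1.27. The part of the list in the result was not tested.

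In blastocysts Phlda2 was at 24.2, 24.5, 18.7 and 21.9 CPM in pWT and at 460, 5.11, 44.1 and 11.1 in pIR. The pIR libraries lay on both sides of the pWT range, and 1 of them was far above the rest. The difference was 2.66 ± 0.94 (edgeR adjusted p = 0.0795), past the threshold with no filter on low counts (0.0223) or without pIR library 4 (3.03, 0.0444). Without pIR library 1, the one at 460 CPM, it was 0.10 (0.918), and with the replicate block it was 0.68 (0.646). Kcnq1ot1 was at 52.5, 34.9, 26.1 and 44.2 CPM in pIR against 47.3 to 83.5 in pWT, and 1 pIR library overlapped the pWT range. Its difference was -0.63 ± 0.23 (edgeR adjusted p = 0.0897). Of 7 tested genes edgeR called 0, where 10.6% of all genes were called, 2 had an unadjusted p under 0.05 and DESeq2 called 0. A difference in the pIR effect between morulae and blastocysts was called by edgeR for no gene of the domain (0 of 7, with 4 whose unadjusted p was below 0.05, and 0% of all genes), while DESeq2 called 1, Cd81 (-5.32, adjusted p = 0.0241). The sum of trophectoderm markers was 3650 to 6370 CPM in pWT and 5900 to 7660 in pIR blastocysts, that of inner cell mass and primitive endoderm markers 711 to 929 and 386 to 705, and that of the nuclear-retained RNAs 10400 to 17100 and 6940 to 10200. Their part in these differences was not tested. Of the partner genes, Cd63, a tetraspanin of endosomes, rose by 0.92 in pIR morulae (1 of 8 tested tetraspanins and partners) and by 0.83 in pIR blastocysts (1 of 7). In blastocysts 3 of 14 U5 snRNP genes rose (Txnl4a 0.62, Ruvbl2 0.73, Ruvbl1 0.60) and 1 fell (Snrnp200 -0.76), and of 14 chromatin proteins Hnrnpk rose by 0.69 and Jarid2 fell by 0.63.

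**Figure D3:**
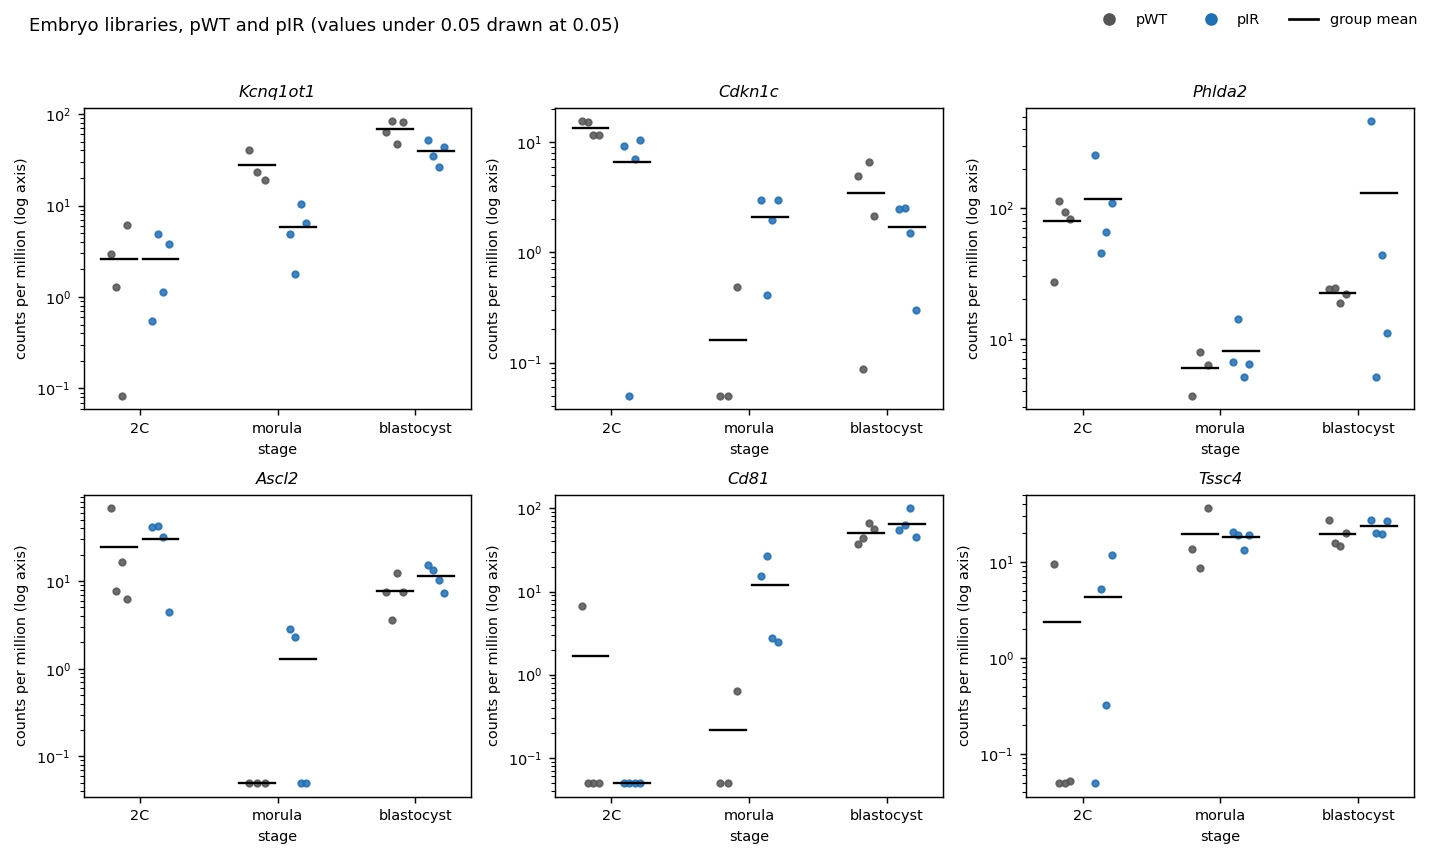
CPM on a log axis of 6 genes of the domain in pWT (grey) and pIR (blue) embryos at 3 stages; each point is 1 library and bars are group means. Kcnq1ot1 climbs from the 2C stage on in pWT, with pIR morulae under the 3 pWT morulae, and 1 pIR blastocyst library stands at 460 CPM of Phlda2.

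In E18.5 pTKO organs the heart was the only organ of 5 in which edgeR called genes of the domain: Cdkn1c and Cd81 fell and Kcnq1ot1 rose. Whether the organs differed was tested separately below. Cdkn1c was at 196 and 206 CPM in pWT heart and at 145 and 123 in pTKO heart. The 2 groups did not overlap, and Cdkn1c fell by 0.66 on the log2 scale (SE 0.11, edgeR adjusted p = 0.0248). Kcnq1ot1 was at 16.3 and 15.1 CPM in pWT heart and at 24.9 and 32.7 in pTKO heart. It rose by 0.80 ± 0.19 (edgeR adjusted p = 0.0426), with no overlap. Cd81 was at 608 and 640 CPM in pWT heart and at 442 and 438 in pTKO heart, and fell by 0.58 (SE 0.09, edgeR adjusted p = 0.0223).

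These 3 calls of 5 tested genes stand beside 26.8% of all genes called in pTKO heart. Tssc4 (35.9 and 30.9 CPM in pWT, 25.7 and 22.8 in pTKO; -0.55, edgeR adjusted p = 0.0627) and Kcnq1 (92.0 and 97.9 CPM in pWT, 71.3 and 83.2 in pTKO; -0.37, 0.0737) were not called. Neither overlapped, at 2 libraries against 2, where the share of all genes without overlap was not computed. All 3 calls were lost when either pTKO library was left out (edgeR adjusted p 0.115 to 0.198), and that of Kcnq1ot1 also without pWT library 2 (0.0684). With all organs in one fit Cdkn1c was at 0.051 and Kcnq1ot1 at 0.472. The nuclear-retained RNAs stood far apart in these libraries: their sum was 162 to 345 CPM in pWT heart and 2270 to 2720 in pTKO heart, and Malat1 alone was at 127 and 108 against 848 and 1260. Chromosome 7 genes as a whole were also lower in both pTKO hearts, with a median shift of -0.29 and -0.23 against -0.06 and -0.04 for other autosomes, and 64 distal genes were shifted by -0.41 in each. With chromosome 7 genes outside the domain as the scale the differences were -0.52 for Cdkn1c, -0.44 for Cd81 and 0.94 for Kcnq1ot1, all called. Such shifts were not limited to heart. Chromosome 7 medians of the pTKO libraries were -0.15 and -0.26 in liver, -0.08 and -0.09 in kidney, 0.24 and 0.03 in lung, and 0.04 and 0.01 in brain. Distal medians were -0.17 and -0.28, -0.2 and -0.22, 0.37 and 0.11, and 0.08 and 0.1 in that order. The pWT livers stood at -0.11 and 0.11 over chromosome 7. The part of these shifts was not tested. The pWT hearts of the second E18.5 batch were unlike those of the first: nuclear-retained RNAs were at 2280 to 2880 CPM, near the pTKO hearts, Kcnq1ot1 at 32.0 to 43.2, Cdkn1c at 71.3 to 88.3, Cd81 at 355 to 375 and Kcnq1 at 51.2 to 60.1. For Kcnq1ot1, Cdkn1c, Cd81 and Kcnq1 they stood apart from the first pWT hearts in the same direction as the pTKO hearts. The sums of 2 other marker lists were lower in pTKO heart. Skeletal muscle genes summed to 4810 to 4980 CPM in pWT and 3280 to 3380 in pTKO heart, and erythroid genes to 2750 to 2910 and 892 to 1790. The skeletal muscle list was also high in other pWT hearts, at 1940 to 2190 CPM in the second batch and 1900 to 2340 at P1. In heart it therefore cannot be read as a mark of skeletal muscle cells. Of 4 tested skeletal muscle genes 1 was called lower and 0 higher, with a median log2 fold change of 0.15. Of 7 tested erythroid genes 2 were called lower and 0 higher, with a median of -1.06. Their part in the calls was not tested.

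In liver, kidney and lung edgeR called no gene at all at 2 libraries against 2. Several genes of the domain did not overlap there, which groups of 2 libraries often show without any difference. The share of all genes without overlap was not computed. Cdkn1c was at 331 and 454 CPM in pWT liver and at 148 and 113 in pTKO liver, with no overlap. The difference of -1.71 ± 0.29 had an unadjusted p of 0.00324 and an adjusted p of 0.621 by edgeR, 0.00454 by DESeq2 and 0.0231 by edgeR with all organs in one fit. Kcnq1ot1 was at 3.62 and 0.328 CPM in pWT liver and at 6.69 and 9.59 in pTKO liver (1.94 ± 1.06, edgeR adjusted p = 0.621). Over all genes 0% were called in liver (642 at an unadjusted p under 0.05, 60 by DESeq2), and of 7 tested genes of the domain edgeR called 0, 1 had an unadjusted p under 0.05 and DESeq2 called 1. The 2 pWT livers stood far apart in Kcnq1ot1. Without pWT library 1 the differences were -1.95 for Cdkn1c, 4.45 for Kcnq1ot1 and 0.73 for Slc22a18. Without pWT library 2 they were -1.43 for Cdkn1c and 1.07 for Kcnq1ot1. Either fit leaves 1 pWT library, so no spread within pWT liver was measured.

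In kidney the same pair was placed the same way, with Cdkn1c at 734 and 744 CPM in pWT and 625 and 463 in pTKO (-0.49 ± 0.18, edgeR adjusted p = 0.347). Kcnq1ot1 was at 21.8 and 7.36 CPM in pWT kidney and at 38.7 and 50.5 in pTKO kidney (1.57 ± 0.55, edgeR adjusted p = 0.346). Slc22a18, the transporter, was at 16.1 and 16.1 CPM in pWT and at 9.49 and 7.05 in pTKO (-1.01 ± 0.23, edgeR adjusted p = 0.346). None of these 3 genes overlapped, and the share of all genes without overlap was not computed here either. Over all genes 0% were called in kidney (2374 at an unadjusted p under 0.05, 330 by DESeq2), and of 8 genes of the domain edgeR called 0, 3 had an unadjusted p under 0.05 and DESeq2 called 0. Over the alternative fits the differences ran from -0.72 to -0.3 for Cdkn1c, 0.99 to 2.54 for Kcnq1ot1 and -1.23 to -0.82 for Slc22a18. Some of these fits leave 1 library in a group. The sum of kidney markers was 2390 to 2630 CPM in pWT and 1720 to 1810 in pTKO kidney, and that of the nuclear-retained RNAs was 312 to 1760 and 2510 to 3580 in kidney and 46.6 to 735 and 1140 to 1600 in liver. Their part was not tested.

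Lung and brain were placed differently. In lung Cdkn1c was at 313 and 297 CPM in pWT and at 587 and 358 in pTKO (0.70 ± 0.28, edgeR adjusted p = 0.804), and Kcnq1ot1 at 22.5 and 34.7 against 10.6 and 23.7 (-0.68 ± 0.45, 0.804). The nuclear-retained RNAs were at 1130 to 1450 CPM in pWT lung and 422 to 1260 in pTKO lung. Over all genes 0% were called in lung (488 at an unadjusted p under 0.05, 13 by DESeq2), and of 8 genes of the domain edgeR called 0, 0 had an unadjusted p under 0.05 and DESeq2 called 0. Without pTKO library 2 of lung the differences were 1.00 for Cdkn1c, 0.65 for Slc22a18, 0.43 for Cd81, 0.91 for Tssc4 and -1.38 for Kcnq1ot1. That fit leaves 1 pTKO library, so no spread within pTKO lung was measured. The library kept had a median shift of 0.24 over chromosome 7 genes and 0.37 over distal ones, whose part was not tested. In brain Cdkn1c was at 75.3 and 70.8 CPM in pWT and at 77.0 and 82.9 in pTKO (0.12 ± 0.08, edgeR adjusted p = 0.472) and Kcnq1ot1 at 35.7 and 31.6 against 26.5 and 32.4 (-0.20 ± 0.12, 0.437). Of 5 tested genes in brain edgeR called 0, where 1.75% of all genes were called, 1 (Cd81, 0.17) had an unadjusted p under 0.05 and DESeq2 called 0.

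The test of whether the pTKO effect differed among the 5 organs called 0 of 8 genes by edgeR, where 0.0106% of all genes were called, and 3 had an unadjusted p below 0.05. Cdkn1c had the smallest p of the domain (unadjusted p = 0.000135, edgeR adjusted p = 0.127), and the DESeq2 likelihood ratio test called 3 genes of the domain: Cdkn1c (adjusted p = 2.47e-07), Cd81 (0.00154) and Slc22a18 (0.0215). The edgeR result of this test depended on single libraries of liver and lung. Organs of one animal may share a source, which the labels do not record, and the test treated all libraries as independent. Same-numbered pWT libraries deviated together between liver and kidney (r = 0.56), kidney and heart (0.38) and liver and heart (0.35). In the other organ pairs r ran from -0.1 to 0.03.

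**Figure D4:**
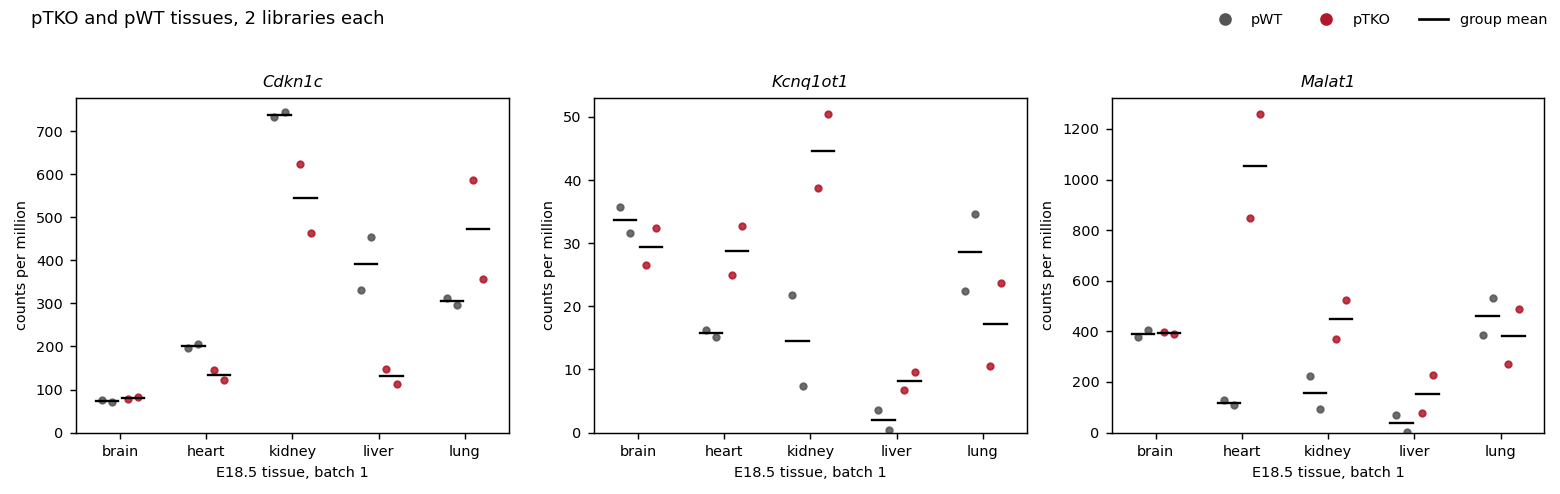
CPM of Cdkn1c, Kcnq1ot1 and the nuclear-retained RNA Malat1 in the 5 organs of E18.5 batch 1, 2 pWT (grey) and 2 pTKO (red) libraries each, with bars at the means. In heart, kidney and liver Cdkn1c is lower and both Kcnq1ot1 and Malat1 are higher in the pTKO libraries, while brain and lung do not share that placement.

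Among the partner genes in pTKO heart calls went in both directions, in a comparison where 15% of all genes were called higher and 11.9% lower. Of 14 chromatin proteins 3 rose and 1 fell: Suz12 by 1.95, Ezh2 by 0.74 and Jarid2 by 0.49, with Rbbp4 at -0.51. Of 10 tested tetraspanins and partners of Cd81, 4 fell and 0 rose: Tspan4 by 0.77, Igsf8 by 0.69, Cd151 by 0.47 and Cd63 by 0.38. Of 14 genes of the U5 snRNP and its assembly 6 fell and 0 rose, Aar2 by 0.85 among them. Of 8 tested channel subunits 1 rose (Kcne3, 1.16) and 1 fell (Kcne1l, -1.40), of 9 cyclins and kinases 1 rose (Cdk6, 1.21) and 2 fell (Ccnd3, -0.74, and Cdk4, -0.81), and of 5 tested kinase inhibitors 1 fell (Cdkn2d, -0.69).

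In E18.5 pIR organs of the second batch no gene of the domain was called. Kcnq1ot1 was at 43.2, 32.0, 37.1 and 39.6 CPM in pWT heart and at 37.1, 37.6, 37.8 and 39.5 in pIR heart. The pIR values lay inside the pWT range, and the difference was 0.01 (95% interval -0.16 to 0.19). Cdkn1c was at 78.8, 88.3, 71.3 and 79.9 CPM in pWT heart and 73.3, 88.7, 115 and 96.9 in pIR heart (0.24 ± 0.12, edgeR adjusted p = 0.818). In liver Cdkn1c was at 279, 257, 323 and 269 CPM in pWT and 273, 398, 372 and 383 in pIR. Of the 4 pIR livers 3 lay above all pWT livers, and the difference was 0.34 ± 0.11 (edgeR unadjusted p = 0.00927, adjusted p = 0.761).

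Kcnq1ot1, Slc22a18 and Cd81 in liver had smaller fitted differences than Cdkn1c. In liver the difference was 0.10 for Kcnq1ot1 (95% interval -0.21 to 0.41), 0.03 for Slc22a18 (-0.15 to 0.21) and 0.00 for Cd81 (-0.12 to 0.12). In heart edgeR called 0 of 5 genes (0.0137% of all genes), 0 had an unadjusted p under 0.05 and DESeq2 called 0. In liver edgeR called 0 of 7 (0% of all genes; 813 at an unadjusted p under 0.05, 11 by DESeq2), 1 had an unadjusted p under 0.05 and DESeq2 called 0. The difference between the 2 organs was called for 0 of 7 genes (0.00622% of all genes), with 0 by DESeq2 and 0 whose unadjusted p was below 0.05.

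At P1 the pIR liver carried the most calls: Slc22a18, Phlda2, Cd81 and Cdkn1c rose and Kcnq1ot1 fell, 5 of 7 tested genes, in a tissue where 39.2% of all genes were called (20.7% higher, the rest lower). Slc22a18 was at 11.5, 10.2 and 13.5 CPM in pWT liver and at 27.7 and 23.1 in pIR liver. Both pIR libraries lay above all pWT libraries, and Slc22a18 rose by 1.45 ± 0.17 (edgeR adjusted p = 4.1e-05). Phlda2 was at 0.142, 0.0712 and 0.852 CPM in pWT and 2.27 and 1.62 in pIR liver, and rose by 2.72 ± 0.65 (edgeR adjusted p = 0.00583; 0.066 without pIR library 1). Cd81 was at 117, 123 and 124 CPM in pWT and 175 and 140 in pIR liver, and rose by 0.72 ± 0.13 (edgeR adjusted p = 0.00114).

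Kcnq1ot1 was at 2.62, 4.06 and 3.8 CPM in pWT liver and at 0.527 and 1.72 in pIR liver. It fell by 1.27 (SE 0.46, edgeR adjusted p = 0.0468), with no overlap. The call was lost without pWT library 2 (0.108), pWT library 3 (0.105) or pIR library 1 (-0.64, 0.32), with median-of-ratios scaling (0.0521) and with chromosome 7 genes as the scale (0.0637). Cdkn1c was at 49.2, 47.2 and 45.6 CPM in pWT and 49.8 and 47.1 in pIR liver, which overlap. Its call of 0.38 ± 0.12 (edgeR adjusted p = 0.03) rests on the scaling, since TMM raised fitted differences in this comparison by 0.34 relative to library totals, and it was lost without any 1 library (0.0574 to 0.105) and with all organs in one fit (0.146). Tssc4 (-0.01) and Kcnq1 (0.30) were not called.

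Other cell types and RNA classes moved with these calls in P1 liver. The sum of 10 erythroid markers was 59900 to 74800 CPM in pWT and 17300 to 26900 in pIR liver, with 7 of 10 called lower. The sum of 7 liver markers was 50300 to 64600 CPM in pWT and 107000 to 124000 in pIR liver, with 6 of 7 called higher. The nuclear-retained RNAs were at 916 to 1070 CPM in pWT and 394 to 426 in pIR liver. Their part in the calls was not tested.

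In P1 kidney Slc22a18 was at 5.92, 4.62 and 5.46 CPM in pWT and at 11.1 and 13.1 in pIR. The groups did not overlap, and Slc22a18 rose by 1.23 ± 0.20 (edgeR adjusted p = 0.0124; 0.0575 without pWT library 1). It was the 1 called gene of 7, where 10.6% of all genes were called. Phlda2 was at 1.36, 1.76 and 2.35 CPM in pWT kidney and 2.83 and 4.26 in pIR kidney (1.00 ± 0.35, edgeR adjusted p = 0.0996). The sum of kidney markers was 1570 to 2410 CPM in pWT and 2660 to 2820 in pIR kidney, and its part was not tested. In heart Slc22a18 was at 0.432, 0.438 and 0.33 CPM in pWT and 0.729 and 1.02 in pIR (1.01 ± 0.49, edgeR adjusted p = 0.249), also without overlap, and in lung at 3.81, 4.24 and 2.02 against 2.57 and 2.62 (-0.42 ± 0.34, 0.536), which overlap.

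Of 6 tested genes in P1 heart edgeR called 0 (2.32% of all genes), with 0 by DESeq2 and 0 whose unadjusted p was under 0.05, and the same held for the 7 tested in lung (2.6% of all genes). The pIR effect differed among the 4 P1 organs for Slc22a18 (edgeR adjusted p = 0.00362) and Cd81 (0.0109; 0.0599 without pIR library 1 of liver), 2 of 7 genes, where 25.3% of all genes were called. In the E18.5 livers of the second batch, pWT and pIR, Slc22a18 was between 10.2 and 12.4 CPM in all 8 libraries.

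**Figure D5:**
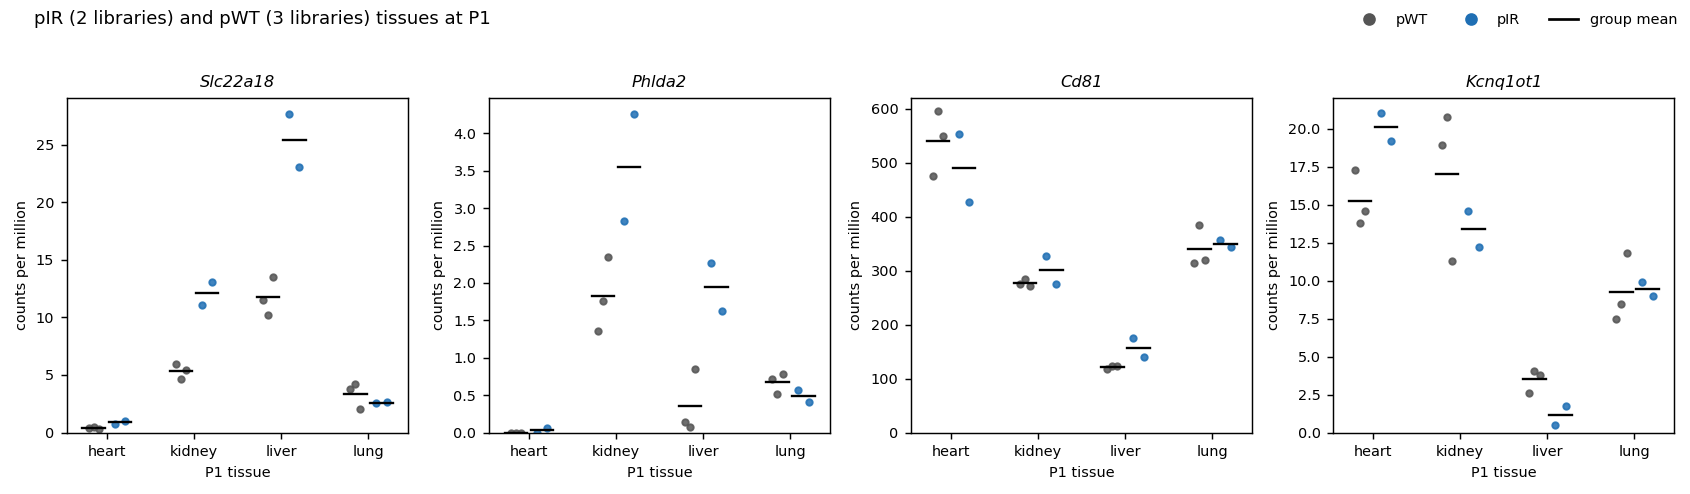
CPM of Slc22a18, Phlda2, Cd81 and Kcnq1ot1 in P1 organs, 3 pWT (grey) and 2 pIR (blue) libraries each, with bars at the means. By library totals Slc22a18 is about as high in pIR kidney (11.1 and 13.1) as in pWT liver (10.2 to 13.5), and pIR livers reach 23.1 and 27.7. Among pWT P1 organs TMM raised liver over kidney by 0.86 on the log2 scale, so that likeness depends on the scaling.

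The listed genes around and beside the domain were called in both directions in P1 liver, where 39.2% of all genes were called, so the counts of flanking, chromatin and U5 snRNP genes are near or under that share. Of 9 tested flanking genes 1 rose and 2 fell: Dhcr7 by 1.72, Tspan32 with -1.02 and Cars with -0.40. Of 4 tested kinase inhibitors Cdkn1a rose by 1.00, and Cdkn1b (-1.12), Cdkn2c (-0.81) and Cdkn2d (-0.78) fell. Of 9 cyclins and kinases bound by Cdkn1c 3 rose and 4 fell, with Ccnd1 at 1.01 and Ccne2 at -1.13. Of 11 tetraspanins and partners 3 rose and 3 fell, with Tspan9 at 1.40 and Tspan4 at 0.69. Of 14 chromatin proteins 1 rose and 4 fell, and of 14 U5 snRNP genes 4 rose and 0 fell. In P1 kidney, beside 10.6% of all genes called, 2 of 5 tested kinase inhibitors rose (Cdkn1a 0.75, Cdkn2c 0.78), 1 of 6 channel subunits rose (Kcne1 1.19), 1 of 9 cyclins and kinases fell (Ccne2 -0.72), and of 10 tetraspanins and partners 1 rose (Tspan9 0.45) and 1 fell (Ptgfrn -0.93).

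Across all 17 comparisons of genotypes, Tssc4 was called in 0 of 16 and Kcnq1 in 0 of 11 tested comparisons. Cdkn1c was called higher in 2 and lower in 1 of 17, Kcnq1ot1 higher in 1 and lower in 1 of 17, Slc22a18 higher in 2 of 9, Ascl2 higher in 2 of 7, Phlda2 higher in 1 of 13, and Cd81 higher in 1 and lower in 1 of 16. A gene that was tested in few comparisons passed the filter on low counts in few tissues, so these counts are not comparable between genes.

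Among pWT organs each gene had its own order, in comparisons where a large share of all genes was called. At P1 that share was 65.6% between kidney and heart, 72.9% between liver and heart, 67.8% between lung and heart, 73.7% between liver and kidney, 68.2% between lung and kidney and 76.7% between lung and liver. Per kilobase of annotated exon, only a rough scale between genes, E18.5 pWT kidney held Cdkn1c at 362 CPM per kilobase, Cd81 at 115, Tssc4 at 20.3, Slc22a18 at 9.48, Kcnq1 at 6.05, Phlda2 at 3.05 and Ascl2 at 0.266. Kcnq1ot1, whose annotated exon is 93.09 kilobases long, was at 0.157, and its place depends on that length. At P1 Cdkn1c was highest in kidney, at 572 ± 159 CPM (SD, n = 3), then in lung (152 ± 19), heart (94.8 ± 16.4) and liver (47.3 ± 1.82), and all 6 pairs of organs were called by edgeR. The call between lung and heart (0.49, edgeR adjusted p = 0.0203) was lost without heart library 2 (0.0862), lung library 1 (0.0802) or lung library 2 (0.0532). Kcnq1, a channel of the heart's repolarising current, was highest in P1 heart (57.4 CPM), with kidney (30.6) and lung (24.5) not called different (edgeR adjusted p = 0.76) and liver at 1.23. Slc22a18 was highest in liver (11.7 CPM), with kidney (5.34) and lung (3.36) not called different (0.164) and heart at 0.4. Cd81 ran from heart (540 CPM) through lung (339) and kidney (277) to liver (121), with all 6 pairs called. TMM raised the liver minus kidney difference of P1 organs by 0.86, so the fitted difference of Cd81 was -0.33 (edgeR adjusted p = 0.0211; 0.0637 without kidney library 2). Kcnq1ot1 ran from kidney (17 CPM) and heart (15.2), which were not called different (0.309), to lung (9.25) and liver (3.49).

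In the first E18.5 batch the same organs were lowest and highest for Kcnq1 among the 4 shared organs (heart 95 CPM, liver 1.19), with brain at 1.04. Slc22a18 was at 18.4 CPM in liver, 16.1 in kidney, 5.53 in lung, 0.604 in brain and 0.325 in heart. Kcnq1ot1 was highest in brain (33.6 CPM) and lowest in liver (1.97), and 3 of its 10 organ pairs were called. In the second batch Kcnq1ot1 was at 38.0 ± 4.70 CPM (SD, n = 4) in pWT heart and 12.5 ± 2.75 in pWT liver. Heart was thus above liver in both batches, with heart at 15.7 CPM in the first. The levels differed between batches and the second holds no other organ, so the place of brain holds within the first batch only. Cdkn1c was at 739 CPM in kidney, 392 in liver, 305 in lung, 201 in heart and 73 in brain. The order of kidney and liver depends on the scaling, since TMM raised the fitted liver minus kidney difference by 1.12, to 0.21 (edgeR adjusted p = 0.392). The share of all genes called at E18.5 was 64.9% in heart, 58.2% in kidney, 69.8% in liver and 58.5% in lung against brain, 40% in kidney, 49.4% in liver and 46.6% in lung against heart, 45.9% between liver and kidney, 35.3% between lung and kidney and 53.8% between lung and liver. Over the tested genes and organ pairs, 30 of 42 were called at P1 and 49 of 80 at E18.5. Tssc4 was called in 0 of 6 P1 pairs, and Cdkn1c and Cd81 in 6 of 6 each.

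The genes most like each member over the means of the 31 groups were found among 16227 genes, as a description of groups that share tissues and library types. Slc22a18 was followed most closely by the liver genes Hpn (Pearson r = 0.97), Acsm1 (0.96) and Ugt1a1 (0.96). Kcnq1 was followed by Ccn4 (0.98), Jph2, a protein of the cardiac junctional membrane (0.97), and Kremen1 (0.97), and Cdkn1c by Tmem176b (0.95), Zfp618 (0.94) and Tmed3 (0.93). Phlda2 was followed by Tmem216 (0.94), Unc50 (0.93) and Cdk2ap2 (0.92), Ascl2 by Oas1f (0.94), Slc5a4b (0.93) and Abca16 (0.91), and Tssc4 by Gpaa1 (0.97), Chmp1a (0.96) and Chmp6 (0.96). For Cd81 these were Ckap4, Msn and Sparc (0.96 each), and for Kcnq1ot1 the values were lower: Mterf2 0.87, Zfyve16 0.86 and Anapc4 0.84. Within the domain r was 0.86 between Phlda2 and Ascl2, 0.63 between Cdkn1c and Slc22a18, 0.05 between Kcnq1 and Kcnq1ot1, which overlap in the genome, and -0.27 between Cdkn1c and Kcnq1ot1.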

How the data were processed

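Raw read counts per gene were deposited by the authors in 10 tables. The submitters' processing notes name Trim Galore 0.6.6, HISAT2 2.1.0, featureCounts 1.6.4, DESeq2 and the build mm10, without their roles. Neither gene annotation nor strand setting was found in these sources. Per the labels' protocols, poly(A) RNA was sequenced as 150 bp paired ends, and a low-input Smart-Seq2 kit is also described; which libraries used it is not given.

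All genes of a comparison were fitted with edgeR 4.0.16 (R 4.3.3, limma 3.58.1): genes passing filterByExpr with a minimum count of 10, TMM scaling, a quasi-likelihood F test and Benjamini-Hochberg adjustment over all genes tested, with a gene called at an adjusted p under 0.05. "Not tested" genes failed that filter. Haploid genotypes, the 3 pWT stages and the pWT organs of one age were each fitted together, and other comparisons used their own groups alone. Standard errors are the log2 fold change over the square root of F, intervals are 95% (1.96 SE), and both measure the spread between libraries. CPM use library totals, so ratios of printed CPM can differ from fitted fold changes. Depths were 6.1 to 37.4 M counts. On simulated counts with the real libraries' means, the share of genes changed 4-fold that was recovered was 88% for TKO against WT, 39% in morulae, 77% in pTKO heart, 0% in pTKO liver and 97% in P1 liver.

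Same-numbered libraries were not treated as pairs: no comparison with 3 or more pairs had every correlation of deviations above 0.1 (0.01 to 0.23 for TKO against WT). Some same-numbered E18.5 pWT libraries of the first batch did deviate together: liver and kidney (r = 0.56), kidney and heart (0.38) and liver and heart (0.35). The other organ pairs ran from -0.1 to 0.03. Fits of several organs still treated all libraries as independent. Alternatives were DESeq2 1.42.0, no filter on low counts, scaling by the median of ratios, leaving out each library (a group left with 1 library is assumed to vary like the other), a replicate block, wider or narrower fits, and chromosome 7 genes as the scale, the last 2 kinds partly added after seeing the data. The genes, gene lists and tests were chosen with earlier results of these data known. Named genes were the 8 genes of the domain, Dnmt1 as a check of the labels, up to 4 called genes of each list by smallest p, the 3 genes most like each of the 8, and overlapping neighbours. Positions and exon lengths are from GENCODE M21 (mm10). Some genes of the lists are not reported here.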

Additional observations from a re-analysis of the deposited data

Results flagged for a closer look

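In a group of 4 libraries, 1 library was set apart where its gap to the nearest other library exceeded Dixon's 95% critical share of the group's range, which chance does in about 1 in 20 groups. Of 53 gene and group combinations with a mean of at least 1 CPM, 6 met this. Phlda2 was at 460 CPM in pIR blastocyst library 1 against 5.11 to 44.1 in the other pIR blastocysts. In pWT 2C library 1, Slc22a18 was at 5.23 CPM, Kcnq1 at 5.97 and Cd81 at 6.7, with 0 in the other 3 libraries for each, and Tssc4 was at 9.46 against 0 to 0.0525. These 4 values come from the same library, and Ascl2 was also highest there, at 67.4 CPM. Without this library the morula minus 2C difference of Tssc4 went from 2.66 (edgeR adjusted p = 0.244) to 9.06 (0.00042), a fitted value against 2C libraries at or near 0. Tssc4 was at 13.3 CPM in pIR morula library 3 against 19.2 to 20.3 in the others.

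The pIR effect differed among the 4 P1 organs by edgeR's test of the difference itself for Slc22a18 (adjusted p = 0.00362) and Cd81 (adjusted p = 0.0109). For Slc22a18 the log2 fold changes were 1.45 in liver, 1.23 in kidney, 1.01 in heart and -0.42 in lung, and for Cd81 they were 0.72, 0.17, -0.24 and 0.01 in the same order.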

How the results depend on the processing

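Of the comparisons of single genes of the domain with their alternatives, 0 reversed direction while called. The number of genes of the domain called changed as follows. Counts over all genes in many of these fits are given in the last paragraph, so no count here stands as a result about the domain. In STOP against WT, 2 became 1 with median-of-ratios scaling, 1 with the replicate block, and 4 with the 2 genotypes alone in the fit (Phlda2 and Kcnq1ot1 added). In pIR morulae 0 became 2 with DESeq2 and 2 with blastocysts in the fit, and in pIR blastocysts 0 became 1 with no filter. In pTKO heart 3 became 1 with all organs in one fit, and in pTKO liver 0 became 1 with DESeq2 and 1 with all organs in one fit. With DESeq2, blastocyst against morula went from 1 to 4, the morula and blastocyst difference from 0 to 1, the P1 organ difference from 2 to 4 and the pTKO organ difference from 0 to 3. The cause was not tested. The replicate block moved no other of these counts by more than 1.5 times; it ended the single calls of Cdkn1c in STOP (adjusted p = 0.091) and P1 liver (0.102) and of Kcnq1ot1 in pTKO heart (0.0728).

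With 1 library left out, the counts ran from 0 to 4 in TKO, 0 to 0 in STOP, 0 to 1 in pIR blastocysts, 0 to 3 in each of pTKO heart, kidney and liver, 0 to 5 in pTKO lung, 0 to 1 in P1 kidney, 2 to 4 in P1 liver, 0 to 1 in blastocyst against morula, 3 to 4 in morula against 2C, 1 to 3 for the P1 organ difference and 0 to 4 for the pTKO organ difference. Organ pairs called ran from 38 to 53 at E18.5 and 28 to 33 at P1. In pTKO heart, kidney and liver same-numbered libraries deviated oppositely (r = -0.34, -0.16 and -0.21), and the crossed pairing called 3, 0 and 0 genes of the domain. Simulated 4-fold changes were recovered in 5% of cases in 2C embryos, 0% in pTKO liver and 99% in pTKO brain, with no test of what sets this.

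Over all genes tested, counts of called genes moved more. With DESeq2 in place of edgeR they went from 0 to 8 in 2C embryos, 16 to 317 in morulae, 1282 to 2123 in blastocysts, 272 to 159 in pTKO brain, 0 to 330 in pTKO kidney, 0 to 60 in pTKO liver, 0 to 13 in pTKO lung, 349 to 1593 in P1 heart, 1727 to 2738 in P1 kidney, 421 to 1067 in P1 lung, 375 to 1550 in blastocyst against morula and 2 to 2466 for the pTKO organ difference. With the 2 genotypes alone in the fit they went from 2177 to 1291 in TKO and from 3463 to 8133 in STOP. The replicate block took pTKO heart from 4042 to 2535, P1 heart from 349 to 56, P1 lung from 421 to 1209, pTKO brain from 272 to 168 and morulae from 16 to 1. Leaving out 1 library gave 574 to 6968 in TKO, 124 to 1228 in STOP, 229 to 1520 in blastocysts, 0 to 5266 in pTKO heart, 0 to 5327 in pTKO kidney, 0 to 7191 in pTKO liver, 0 to 7876 in pTKO lung, 150 to 2219 in P1 kidney and 4325 to 5139 in P1 liver.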
